A study of Mus musculus with 6 samples.

Results

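Milk protein genes were measured in mammary epithelial cells from the pubertal gland of female *fat-1* and wildtype (WT) mice. The set held 10 genes taken by symbol, and all 10 had a row among the 61880 rows of the count table. They were the caseins *Csn1s1*, *Csn2*, *Csn1s2a*, *Csn1s2b* and *Csn3*, the whey protein genes *Wap* and *Lalba*, and the milk fat globule genes *Mfge8*, *Xdh* and *Btn1a1*. Each gene was read as the row with its symbol and as the sum of all rows that the authors' transcript assembly had given the same locus number.

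Both groups were of the FVB/NJ strain, were aged 6 to 8 weeks and had been kept for life on the parental diet, a modified AIN93G diet with 10% fat by weight from safflower oil, which gave 22% of the energy. The *fat-1* mice also carried a transgene for a desaturase of the roundworm, which converts *n*-6 into *n*-3 PUFA in all tissues, and the WT mice did not. Each group had 3 samples, and each sample was a pool of inguinal glands from several mice, digested to release the epithelial cells. No row for the transgene was used here, so the genotype labels were not checked against it. The counts summed to between 204539059 and 232148824 per sample, which makes a single count worth less than 0.005 CPM (counts scaled to a common library total). The luminal keratins and the basal markers of the mammary epithelium were present in every sample, and RNA of fibroblasts and immune cells was counted in all 6 samples. Each sample is named by its genotype and its number and called a pool where values are given. Fewer cells of a type and less RNA per cell cannot be told apart in such samples.

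Caseins form the micelles that carry calcium and phosphate in milk, whey acidic protein and α-lactalbumin are secreted beside them, and the fat globule leaves the cell wrapped in membrane that holds butyrophilin, xanthine dehydrogenase and lactadherin. In late pregnancy and lactation, prolactin acts through its receptor and the transcription factor STAT5, together with ELF5 and the glucocorticoid receptor, to switch these genes on in alveolar cells. The pubertal gland makes no milk and consists of growing ducts in a fat pad.

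STAT5 binds a short palindrome known as the GAS element, spelled TTCNNNGAA, which reads the same on both strands. The sequences upstream of the transcription start were available from RefSeq (GRCm38.p6) for 6 of the 10 genes, *Csn1s1*, *Csn2*, *Csn1s2a*, *Wap*, *Lalba* and *Mfge8*. In the 250 bases before the start, the GAS letters were found in *Csn1s1* and *Csn2* and in none of the other 4, once in each, whereas 7.02% of the 32851 upstream sequences in the table hold them. The stretches around both matches are shown because they are the only GAS letters found near these starts, and the GAS letters are in capitals. That of *Csn1s1* lies at chr5:87666098-87666126 on the plus strand, with the match 100 to 92 bases before the start. That of *Csn2* lies at chr5:87699500-87699528 on the minus strand, with the match 93 to 85 bases before the start. RefSeq starts *Csn2* inside the span that GENCODE gives the gene, which holds an isoform with an earlier start, so this stretch lies within that span.
Csn1s1: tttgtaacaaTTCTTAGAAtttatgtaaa
Csn2: tcacgtagacTTCTTGGAAttgaagggac

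For contrast, the 150 bases before the start of *Wap* (chr11:6638650-6638799, minus strand) and *Mfge8* (chr7:79149061-79149210, minus strand) are shown, a gene near the lower end of the levels and the one at the top.
Wap: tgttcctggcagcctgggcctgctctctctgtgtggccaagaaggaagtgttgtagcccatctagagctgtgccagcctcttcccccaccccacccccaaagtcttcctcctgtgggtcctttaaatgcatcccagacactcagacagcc
Mfge8: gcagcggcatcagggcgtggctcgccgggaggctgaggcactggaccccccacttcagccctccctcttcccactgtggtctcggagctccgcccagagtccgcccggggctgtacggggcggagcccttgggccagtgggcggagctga
The base composition of the 250 bases ran from 32.8% G and C in *Csn1s1*, 34% in *Csn1s2a* and 36.8% in *Csn2*, through 49.6% in *Wap* and 50.8% in *Lalba*, to 65.2% in *Mfge8*, beside a median of 52.4% over all upstream sequences. The RefSeq start of *Csn1s2a* lies before the GENCODE gene and its first bases were not found in a GENCODE transcript, so its window rests on RefSeq alone. A match describes letters and not a bound site, and a window without the letters says nothing about STAT5.

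The levels of the 10 genes spanned a wide range. To compare genes with each other, each locus sum in CPM was divided by the length of the longest protein-coding transcript, which gives CPM per kb. *Mfge8*, which encodes the secreted lactadherin (chromosome 7, 79133768 to 79149060, GRCm38), had a mean of 87.4 CPM per kb over the 6 samples, and only 768 of 50670 genes with a known length were higher. *Xdh*, the xanthine dehydrogenase gene (chromosome 17, 73883895 to 73950196), had 32.7 CPM per kb, with 2283 genes higher. Neither is made by milk-secreting cells alone, since macrophages and other cells are known to express both.

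Next in order were *Csn3* and *Btn1a1*. *Csn3*, which encodes κ-casein on the surface of the micelle (chromosome 5, 87925579 to 87932665), had 3.60 CPM per kb, and *Btn1a1*, which encodes butyrophilin of the fat globule membrane (chromosome 13, 23456992 to 23465901), had 1.17 CPM per kb. Their sample ranges overlapped, but *Csn3* was the higher of both in 6 of 6 samples.

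The other 6 genes had few counts in these libraries. *Csn1s1*, the α-S1 casein gene (chromosome 5, 87666208 to 87682578), had 0.357 CPM per kb and *Lalba*, the α-lactalbumin gene whose product turns a galactosyltransferase into lactose synthase (chromosome 15, 98480400 to 98482721), had 0.140 CPM per kb, and their ranges overlapped. *Wap* (chromosome 11, 6635482 to 6638637), *Csn2* (chromosome 5, 87692624 to 87699630), *Csn1s2b* (chromosome 5, 87808082 to 87824426) and *Csn1s2a* (chromosome 5, 87774567 to 87788797) had 0.0311, 0.0169, 0.0132 and 0.00663 CPM per kb, and no neighbours in this order were separated by their sample ranges. Between adjacent genes, the ranges were apart at 3 places only, below *Mfge8*, below *Xdh* and between *Lalba* and *Wap*.

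**Figure D1:**
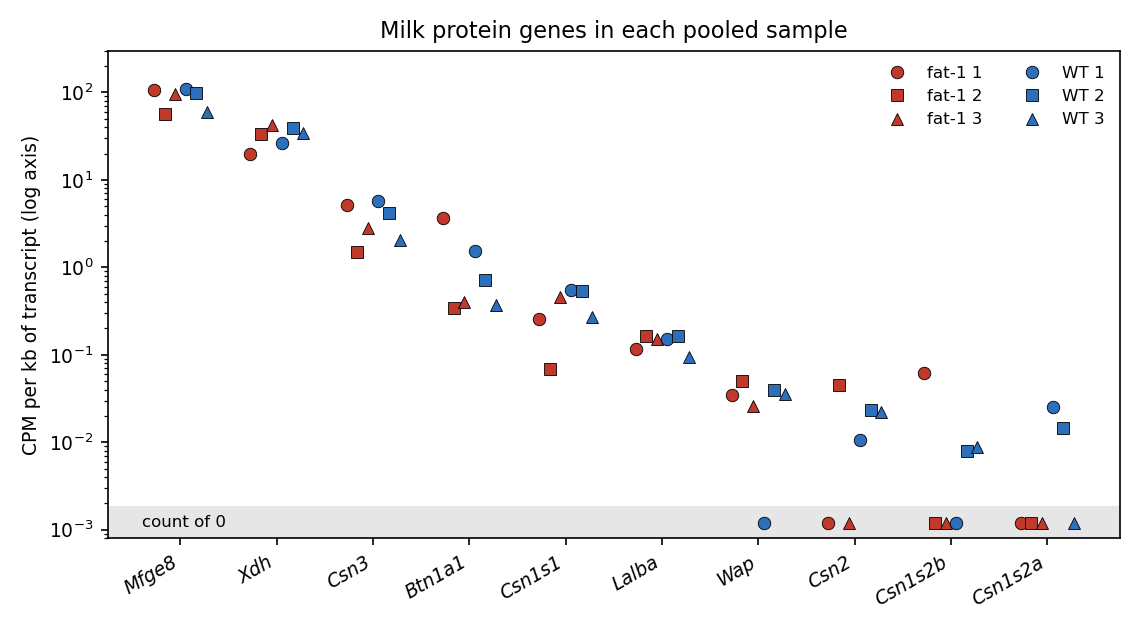
Level of each milk protein gene in CPM per kb of transcript (log axis) in the 3 *fat-1* samples (red) and the 3 WT samples (blue), 1 point per pooled sample, with counts of 0 drawn in the grey band. The genes run from *Mfge8* at 87.4 to *Csn1s2a* at 0.00663 CPM per kb on average, and the red and blue points interleave for every gene but *Csn1s2a*, which had a count in WT samples 1 and 2 only.

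β-Casein, the product of *Csn2* and the main casein of mouse milk together with the α-caseins, was all but missing from the counts. *Csn2* had 0, 13 and 0 counts in *fat-1* samples 1 to 3 and 3, 7 and 6 counts in WT samples 1 to 3. *Csn1s2a*, an α-S2 casein gene, had no count in any *fat-1* sample and 5, 3 and 0 counts in the WT pools. A count of 0 at these depths allows up to 0.0129 to 0.0147 CPM, a limit set at 3 counts that covers counting error only, so the groups were not distinguishable for *Csn1s2a* at this depth.

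*Csn1s2b*, the second α-S2 casein gene, had 22 counts in *fat-1* sample 1, none in *fat-1* samples 2 and 3, and 0, 3 and 3 counts in the WT pools. *Wap* had 4, 6 and 3 counts in the *fat-1* pools and 0, 5 and 4 counts in the WT pools. These 4 genes did not pass the filter on low counts and were left out of the tests reported for rows and locus sums. In the edgeR fit without that filter, the unadjusted *p* was 0.0826 for *Csn1s2a*, 0.237 for *Csn1s2b*, 0.830 for *Csn2* and 0.551 for *Wap*, and the adjusted *p* was 1.00 for each. Their fitted fold changes depend on the prior count and are not given.

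*Csn1s1* was the only casein beside *Csn3* with counts above the 3-count limit in every sample. It had 76, 21 and 134 counts in the *fat-1* pools and 166, 173 and 79 counts in the WT pools, so that *fat-1* sample 2 was the lowest and *fat-1* sample 3 lay inside the WT range. The level was 0.367 ± 0.273 CPM (SD, *n* = 3) in the *fat-1* pools and 0.641 ± 0.223 CPM in the WT pools, and the log2 fold change was −0.81 (SE, the standard error, 0.61), with an adjusted *p* of 1 (edgeR, quasi-likelihood test, Benjamini–Hochberg adjustment). *Csn1s1* sits at one end of the casein gene cluster and *Csn3* at the other end.

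*Csn3* supplied nearly all casein RNA, between 87.6% and 94.7% of the summed casein CPM in each sample. It had 1750, 507 and 944 counts in the *fat-1* pools and 1979, 1532 and 678 counts in the WT pools. The highest sample of each genotype was sample 1, and the groups overlapped over most of their range. Its level was 5.065 ± 3.001 CPM (SD, *n* = 3) in the *fat-1* pools and 6.44 ± 2.99 CPM in the WT pools, and the log2 fold change was −0.35 (SE 0.54) at an adjusted *p* of 1 by the quasi-likelihood test of edgeR. Without WT sample 1, it was 0.00954.

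*Lalba* was the steadiest of the 6 genes that could be tested. It had 19, 27 and 24 counts in the *fat-1* pools and 25, 29 and 15 counts in the WT pools, a highest value only 1.75 times the lowest in CPM. The mean was 0.110 ± 0.0184 CPM (SD, *n* = 3) in the *fat-1* pools and 0.106 ± 0.0291 CPM in the WT pools, and the log2 fold change was 0.05 (SE 0.32).

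Among the fat globule genes, *Mfge8* had 47309, 25606 and 42175 counts over its locus in the *fat-1* pools and 49584, 47736 and 25823 in the WT pools. One sample of each genotype, *fat-1* sample 2 and WT sample 3, was low and the other 4 samples lay close together. The locus sum was 182 ± 55.4 CPM (SD, *n* = 3) in the *fat-1* pools and 189 ± 56.2 CPM in the WT pools, and the log2 fold change was −0.06 (SE 0.31).

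The *Mfge8* locus also held the neighbouring gene *Hapln3*, with at most 0.267% of its counts, and a row without a symbol. That row had 4269 counts in *fat-1* sample 2, which was 16.7% of the locus there, and between 34 and 192 counts in the other samples. The row with the symbol alone had a log2 fold change of −0.10 (SE 0.37).

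*Xdh*, whose product is an enzyme of purine breakdown that also binds butyrophilin on the milk fat globule, had 19197, 32990 and 41146 counts over its locus in the *fat-1* pools and 26266, 40553 and 32686 in the WT pools. *fat-1* sample 1 was the lowest and *fat-1* sample 3 the highest of all 6, so the *fat-1* values enclosed the WT values. The means were 147.5 ± 53.7 CPM (SD, *n* = 3) and 153.6 ± 28.5 CPM, which gave −0.06 as the log2 fold change (SE 0.29). The assembly split *Xdh* between its row and a row without a symbol, and the row with the symbol held 93.6% of the locus in *fat-1* sample 1 and 40.9% in WT sample 3. By itself, that row had a log2 fold change of 0.29 (SE 0.27), of the opposite sign to the locus sum. It ranged from 0.08 without *fat-1* sample 3 to 0.55 without WT sample 2.

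*Btn1a1* varied most. It had 2647, 252 and 287 counts in the *fat-1* pools and 1115, 556 and 264 counts in the WT pools. A single sample, *fat-1* sample 1, was more than 9 times above the other *fat-1* samples, and those lay at the level of WT sample 3. The level was 5.03 ± 6.51 CPM (SD, *n* = 3) in the *fat-1* pools and 2.98 ± 2.02 CPM in the WT pools, and the log2 fold change was 0.75 (SE 1.01). It became −1.21 without *fat-1* sample 1.

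The comparison of *fat-1* with WT mice asks which RNA levels in these cells differ with lifelong *n*-3 PUFA. None of the 6 tested milk protein genes passed, either in the locus sums or in the rows with the symbol, with adjusted *p*-values of 1 by the quasi-likelihood test of edgeR, and 0 of the 6 had an unadjusted *p* at or under 0.05 in either fit. Over all features, 0 of 24061 loci (0%) and 0 of 30683 rows (0%) passed the adjusted threshold, and 1.14% of the loci and 2.21% of the rows had an unadjusted *p* at or under 0.05. The exact test of edgeR called 6 loci and 32 rows and DESeq2 8 loci and 93 rows, with 0 of the members among them. Of the 6 genes, 2 had a higher and 4 a lower mean in the *fat-1* pools, and the median log2 fold change was −0.06, beside 0.00183 over all loci tested. In 0 of the 10 genes did the *fat-1* values lie apart from the WT values, which was the case for 4.15% of the loci tested. The smallest unadjusted *p* of the 6, 0.229, was that of *Csn1s1*.

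**Figure D2:**
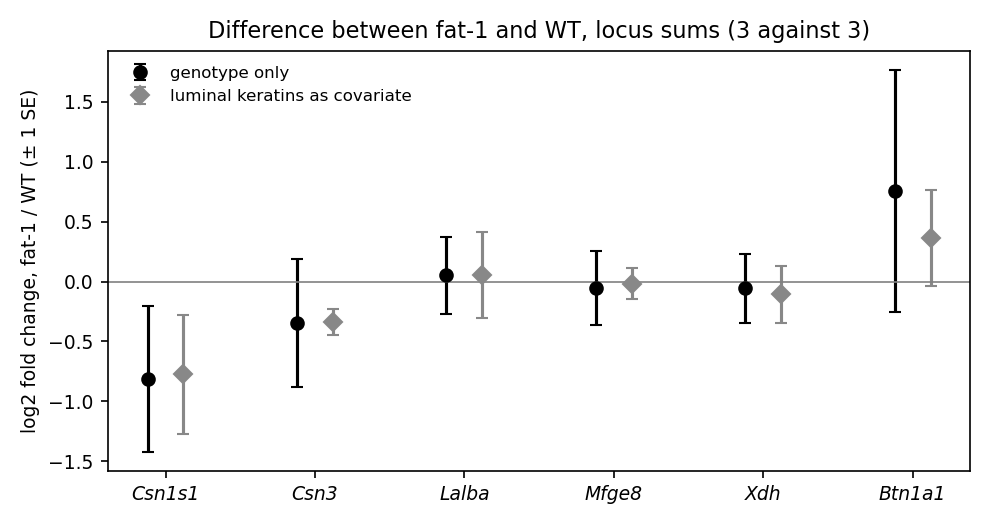
Log2 fold change of *fat-1* over WT for the 6 tested genes (locus sums, 3 samples against 3, error bars ± 1 standard error), from the fit on genotype alone (black) and from the fit with the luminal keratins as a covariate (grey). Black bars cross 0 for *Csn3*, *Lalba*, *Mfge8*, *Xdh* and *Btn1a1*, and the largest errors, 1.01 and 0.61, belong to *Btn1a1* and *Csn1s1*.

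Across the 6 samples of both genotypes, these genes spread to different extents. The highest of the 6 samples was 1.75 times the lowest in *Lalba*, 1.94 times in *Mfge8*, 2.17 times in *Xdh*, 3.92 times in *Csn3*, 7.93 times in *Csn1s1* and 10.7 times in *Btn1a1*. The median was 2.92 over these 6 genes and 1.72 over the 23410 tested loci with a count in every sample.

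For several genes the order of the samples was close to that of their luminal and basal markers. The summed level (locus sums) of the luminal keratins *Krt8*, *Krt18* and *Krt19*, structural proteins of the cells that line the ducts, came to 2037, 460 and 806 CPM in *fat-1* pools 1 to 3, against 1603, 969 and 482 CPM in WT pools 1 to 3. *Btn1a1* put the 6 samples in exactly the same order as these locus sums, from *fat-1* sample 1 down to *fat-1* sample 2. *Csn3* and *Mfge8* gave that order too, except that WT sample 1 stood above *fat-1* sample 1. The *Krt8* and *Krt18* loci also held a row without a symbol, and their own rows held 37.3% to 86.4% and 61.1% to 99.2% of them. In those own rows *fat-1* sample 3 stood above WT sample 2, with 226.8 against 148.1 CPM for *Krt8* and 312.7 against 235 CPM for *Krt18*. The locus sum of *Krt19* went the other way, with 146.5 against 207.2 CPM. The 8 basal markers (all present) moved much like the luminal keratins, with 619.5, 164.0 and 321.9 CPM in *fat-1* pools 1 to 3, against 499.4, 271.0 and 156.9 CPM for WT. The 8 immune markers (all present) were highest in the samples lowest in keratins, with 1416 CPM in *fat-1* sample 2 and 1458 CPM in WT sample 3.

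*Csn1s1* departed from it, since *fat-1* sample 1, the richest in luminal keratins, was second lowest in *Csn1s1*. The locus sum of *Xdh* ran the other way, with its lowest values of 91.0 and 122.8 CPM in *fat-1* sample 1 and WT sample 1. Its order of samples was that of the 8 fibroblast markers (all present), whose summed level was 1679, 4251 and 6444 CPM in the *fat-1* pools, compared to 3538, 5999 and 5264 CPM in those of WT mice. The row with the *Xdh* symbol did not share that order and was lowest in WT sample 3. It had 17965, 20241 and 27500 counts in the *fat-1* pools and 16588, 25585 and 13355 counts in the WT pools. The row without a symbol in that locus had 1232 counts in *fat-1* sample 1 and 19331 counts in WT sample 3. The 8 adipocyte markers (all present) summed to less in every *fat-1* sample than in any WT sample. The sums were 92.2 to 115.6 CPM for *fat-1* and 119.9 to 138.5 CPM for WT. Most of each sum came from 1 gene, *Fabp4*, which encodes a fatty acid carrier and was named after its value was seen. The sum thus mostly gives the level of *Fabp4* and not that of the list. *Fabp4* alone had 93.6, 106.1 and 83.1 CPM in *fat-1* pools 1 to 3, against 111.5, 125.9 and 112.2 CPM for WT. Its log2 fold change was −0.31 (SE 0.12), with an unadjusted *p* of 0.0370 but an adjusted *p* of 1 by the quasi-likelihood test of edgeR. The groups overlapped for each of the other adipocyte markers, none of which exceeded 7.61 CPM in any sample. Over all loci tested, the groups lay apart for 4.15%. The part of these cell types in the levels of the milk protein genes was not tested.

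**Figure D3:**
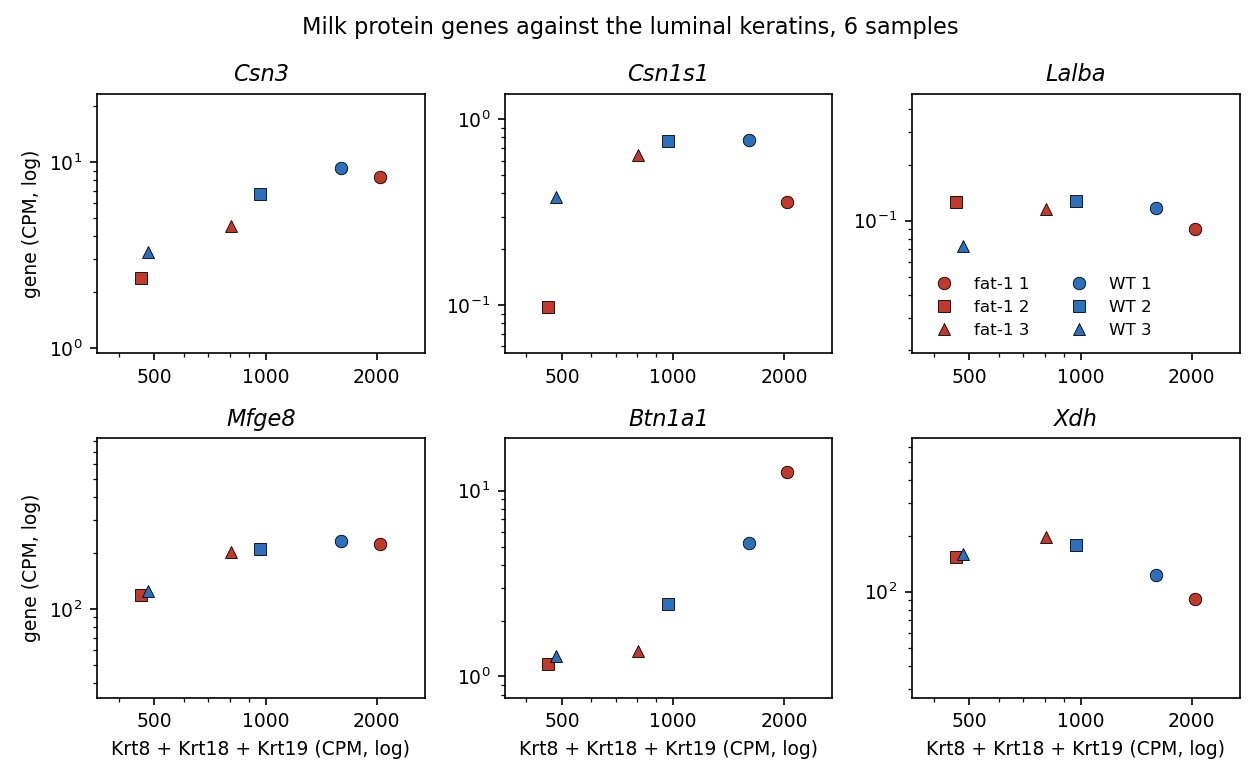
Level of 6 milk protein genes (locus sums, CPM, log axis) against the summed level of the luminal keratins *Krt8*, *Krt18* and *Krt19* (locus sums, CPM, log axis), 1 point per pooled sample, *fat-1* in red and WT in blue. Each vertical axis spans the same fold range, and *Btn1a1* climbs from 1.17 to 12.6 CPM with the keratins while *Xdh* is lowest, at 91.0 CPM, where the keratins are highest.

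Each gene was therefore also taken relative to the luminal keratins, as the log2 of the ratio of its level (plus 0.01 CPM) to the sum of their loci. The rows without a symbol in the *Krt8* and *Krt18* loci are part of that sum. For *Csn3* the 6 samples drew together, from a range of 1.96 on the log2 scale in CPM to 0.78 relative to the keratins. The values of *Csn3* relative to the keratins were −7.94, −7.60 and −7.47 in the *fat-1* pools and −7.44, −7.16 and −7.19 in the WT pools. All 3 *fat-1* values lay below all 3 WT values, narrowly so between *fat-1* sample 3 and WT sample 1.

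The *Csn3* means were −7.67 ± 0.24 (SD, *n* = 3) and −7.26 ± 0.15, a difference of −0.41 with a two-sided exact permutation *p* of 0.1, the smallest that 3 against 3 samples allow. *Csn3* was the 1 gene of the 10 whose groups lay apart on this measure. The share of the loci tested was 0.453% in either direction and 0.249% with lower values in *fat-1* samples. In CPM, the share in either direction was 4.15%. The keratin sum itself ran from 460 to 2037 CPM in the *fat-1* pools and from 482 to 1603 CPM in the WT pools. The ratio of a gene that does not follow the keratins takes on their spread, so these shares do not measure how unusual *Csn3* is. With the keratins as a covariate in the quasi-likelihood fit of edgeR, *Csn3* had a log2 fold change of −0.34 (SE 0.11), with an unadjusted *p* of 0.0185 and an adjusted *p* of 0.999, and 2.61% of the loci had an unadjusted *p* at or under 0.05 in that fit. The difference thus passed no threshold that takes account of the number of loci. With 1 CPM added in place of 0.01 CPM, the groups of *Csn3* overlapped and the difference was −0.33 (exact permutation *p* = 0.3).

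For the other 9 genes, the groups overlapped relative to the keratins as well. *Mfge8* differed by −0.06 (exact permutation *p* = 0.8), *Xdh* by −0.12 (exact *p* = 1), *Btn1a1* by 0.10 (exact *p* = 0.9), *Lalba* by 0.07 (exact *p* = 0.9) and *Csn1s1* by −1.07 (exact *p* = 0.3), and the ratios of the 4 genes near a count of 0 rest mostly on the added 0.01 CPM. The difference of *Csn1s1* was −0.28 with 1 CPM added, −1.73 without *fat-1* sample 3 and −0.65 without *fat-1* sample 1. The log2 range of *Btn1a1* also narrowed, from 3.41 to 1.84, and that of *Csn1s1* from 2.865 to 2.171. It widened from 0.73 to 2.59 for *Lalba*, from 0.9575 to 1.244 for *Mfge8* and from 1.12 to 2.90 for *Xdh*. In CPM, *Lalba* lay between 0.0730 and 0.128 in samples whose luminal keratins ran from 460 to 2037 CPM.

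Genes tied to the control of milk protein genes were looked at as lists of 15 genes of prolactin and STAT5 signalling and 11 alveolar and secretory transcription factors. Of these, 14 and 11 were tested, and 0 had an unadjusted *p* at or under 0.05 in the locus sums, beside 1.14% of all loci. The median log2 fold changes were 0.00666 and −0.17. The lists were not sorted into activators and inhibitors, so these medians give no direction of signalling. The row of *Nr3c1*, the glucocorticoid receptor gene, named after its value was seen, held 30.1% to 93.6% of its locus. It had a log2 fold change of 0.90 (SE 0.30) and an unadjusted *p* of 0.0248 by the quasi-likelihood test of edgeR, beside 2.21% of all rows. It did not pass the adjusted threshold. *Prl*, the prolactin gene, which is expressed mainly in the pituitary, had a count of 0 in all 6 samples.

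*Prlr*, the prolactin receptor gene, had 126.5, 22.4 and 78.2 CPM in the *fat-1* pools, compared to 157.4, 89.8 and 37.8 CPM in those of WT mice. It ordered the samples just as *Csn3* and *Mfge8* did. Its log2 fold change was −0.33 (SE 0.71), and its locus also held a few counts of *Agxt2* and *Gm21973*.

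*Elf5*, the factor that directs alveolar differentiation, had 12.1, 3.70 and 12.4 CPM in the *fat-1* pools, compared to 24.3, 16.4 and 4.41 CPM in those of WT mice. As with *Csn1s1*, *fat-1* sample 1 was lower in *Elf5* than WT samples 1 and 2, but *fat-1* samples 1 and 3 were nearly equal in *Elf5*. The log2 fold change of *Elf5* was −0.67 (SE 0.69).

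The locus sums of the STAT5 genes were flat by comparison. *Stat5a* lay between 110.1 and 170.1 CPM in the *fat-1* pools and between 127.7 and 148.5 CPM in the WT pools, and *Stat5b* between 99.1 and 133.5 CPM and between 105.6 and 140.3 CPM. Their log2 fold changes were −0.03 and −0.01. Both loci also held a row without a symbol. The row of *Stat5a*, with 18.2% to 36.8% of its locus, had a log2 fold change of −0.40 (SE 0.22). That of *Stat5b*, with 45.5% to 80.4% of its locus, ran from 45.2 to 112.5 CPM. Its log2 fold change was −0.26 (SE 0.36). The highest levels per length in both lists were those of *Akt1*, a kinase downstream of many receptors, with 78.8 CPM per kb, and *Cebpb*, a factor needed for alveolar growth, with 103.3 CPM per kb. The *Akt1* locus also held *Mir6939* and a row without a symbol, and the row of *Akt1* alone had 53.5 CPM per kb.

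Genes for the rest of milk were measured as well. In the locus sums, none of the 11 genes of lactose synthesis and none of the 21 genes of milk fat synthesis and secretion had an unadjusted *p* at or under 0.05, beside 1.14% of all loci, and their median log2 fold changes were −0.00664 and −0.04. The glucose transporter gene *Slc2a1* led the former with 93.5 CPM per kb and the lipid droplet coat gene *Plin2* the latter with 157.5 CPM per kb, both above *Mfge8*. The *Plin2* locus also held *Gm12551* and a row without a symbol, and the row of *Plin2* alone had 107.1 CPM per kb. The rows of *Cidea* and *Vldlr* in the milk fat list, named after their values were seen, had log2 fold changes of −1.26 (SE 0.38) and −0.97 (SE 0.35). Their loci had 0.40 and −0.11. By the quasi-likelihood test of edgeR, the unadjusted *p* of these rows was 0.0172 and 0.0333, and neither passed the adjusted threshold. Over all rows tested, 2.21% had an unadjusted *p* at or under 0.05.

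Of 18 other milk protein genes, all tested, 1 had an unadjusted *p* at or under 0.05, beside 1.14% of all loci. It was *Spp1*, the osteopontin gene, with 6.07, 3.93 and 4.72 CPM in the *fat-1* pools, compared to 6.92, 6.82 and 6.69 CPM in those of WT mice, a log2 fold change of −0.47 (SE 0.18), an unadjusted *p* of 0.0395 and an adjusted *p* of 1 by the quasi-likelihood test of edgeR. The locus also held *Gm42793*, and the row of *Spp1*, with 98.7% to 99.9% of it, had an unadjusted *p* of 0.0586 by the same test. The highest per length was *B2m*, the light chain of class I histocompatibility molecules found in all cells, with 2804 CPM per kb.

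A pair of these genes, picked after their values were seen, parted from each other. *Wfdc18*, a relative of *Wap* in the mammary epithelium, had 74.9, 16.6 and 49.0 CPM in the *fat-1* pools, compared to 72.7, 51.7 and 24.5 CPM in those of WT mice, again lowest in *fat-1* sample 2. *Glycam1*, which encodes a milk mucin and also a ligand on the high endothelial venules of lymph nodes, had 40.5, 120.4 and 116.3 CPM in the *fat-1* pools, compared to 25.0, 23.4 and 101.4 CPM in those of WT mice. Its 3 highest samples were the 3 in which the 8 immune markers (all present) were highest, with 1416, 1080 and 1458 CPM against 630 to 754 CPM in the others. The study's methods state that lymph nodes were removed before the glands were digested. The part of immune cells in the *Glycam1* counts was not tested.

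**Figure D4:**
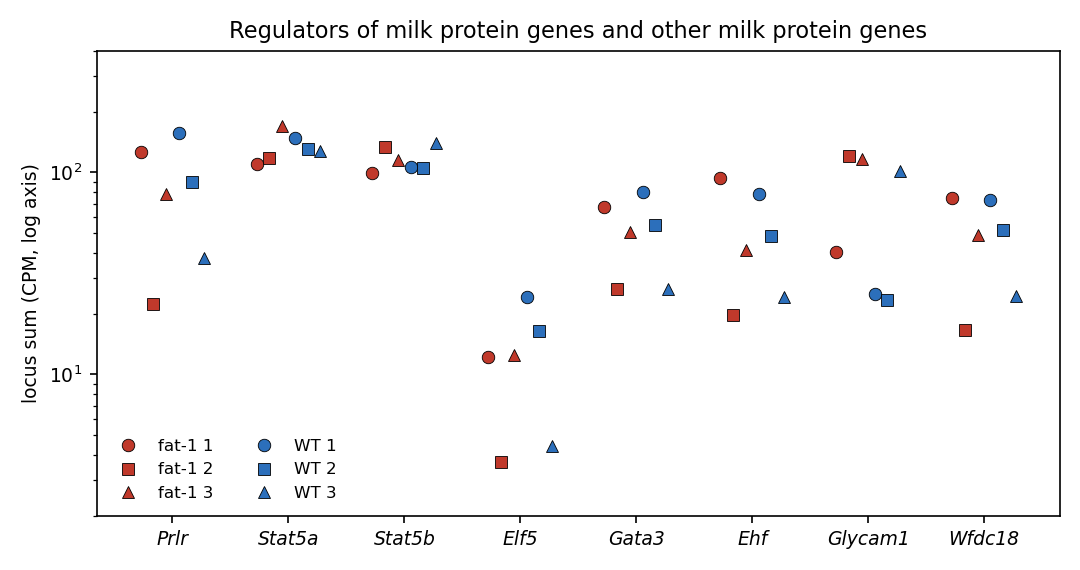
Locus sums (CPM, log axis) of genes that regulate milk protein genes (*Prlr*, *Stat5a*, *Stat5b*, *Elf5*, *Gata3*, *Ehf*) and of the milk protein genes *Glycam1* and *Wfdc18*, 1 point per pooled sample, *fat-1* in red and WT in blue. *Prlr* runs from 22.4 CPM in *fat-1* sample 2 to 157.4 CPM in WT sample 1, *Stat5a* and *Stat5b* stay between 99.1 and 170.1 CPM, and *Glycam1* is highest in *fat-1* samples 2 and 3 and WT sample 3.

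The neighbours of the caseins on chromosome 5 were mostly without counts. Of 12 listed neighbours, 9 had a row, and *Odam*, *Prr27*, *Amtn*, *Ambn*, *Smr3a* and *Prol1* had no count in any of the 6 samples. *Jchain*, the joining chain of secreted antibodies, was the highest with 5.83 CPM per kb, and only 2 of the neighbours had enough counts to be tested, with an unadjusted *p* at or under 0.05 for neither.

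For the 4 genes with a mean level of at least 1 CPM, the genes with the most similar profile were sought among 12900 genes by Pearson's r over the 6 samples, as a description. Nearest to *Csn3* were *Pde5a*, *Rmnd5b* and *Epha4* (r = 0.999, 0.998 and 0.997), and nearest to *Mfge8* were *Dglucy*, *Ptpn9* and *Uggt1* (r = 0.999, 0.999 and 0.998). The closest to *Xdh* were *Slc2a10*, *Cndp2* and *Slco3a1* (r between 0.997 and 1.000), and the closest to *Btn1a1* were *Ocel1*, *Dusp4* and *B230206H07Rik* (r between 0.996 and 0.997). All these profiles come from the same 6 libraries. The amplitude was not matched by r, since *Rmnd5b* ran only from 17.9 to 21.4 CPM while *Csn3* ran from 2.36 to 9.25 CPM. *Dusp4*, a phosphatase of MAP kinases, ran from 80.2 to 232.1 CPM and, like *Btn1a1*, was highest in *fat-1* sample 1 and next in WT sample 1.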

How the data were processed

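RNA from 3 *fat-1* and 3 WT pooled samples was sequenced, and groups and replicate numbers came from the sample titles. The authors aligned reads to GRCm38 with HISAT2, assembled them with StringTie and deposited whole-number estimated counts per row without normalization. Annotation, versions and strand setting are not given in the sources used here. StringTie derives counts from coverage, so small counts are not exact read numbers. Genes were read from 2 tables, the 61880 rows and the 53912 loci obtained by adding rows with the same locus number. No column was without a sample.

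Rows (30683) and loci (24061) kept by filterByExpr entered edgeR 4.0.16 under R 4.3.3 (quasi-likelihood test, newer fit, genotype as the only term), with TMM normalization, Benjamini–Hochberg adjustment over all features and a threshold of 0.05. CPM are relative to TMM-scaled totals. SE was obtained by dividing the log2 fold change by the square root of F. Ratios to the luminal keratins were compared by two-sided exact permutation tests (scipy 1.17.1). DESeq2 1.42.0 was an alternative. Lengths and positions are from GENCODE M21, and upstream sequences from RefSeq. Mice per pool are given by the study in more than one way, and *p*-values measure the spread between pools only.

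The members and lists were chosen with earlier results of these data known. The text names all members, 5 regulators (*Elf5*, *Stat5a*, *Stat5b*, *Prlr* and *Prl*), in each pathway list the highest gene per length and up to 2 genes with the smallest unadjusted *p* under 0.05, and for each member of at least 1 CPM the 3 genes of highest Pearson's r. Genes beyond this rule are said in the text to have been picked after their values were seen, or are named only as sharing a locus, as having no count, or in a plot.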

Additional observations from a re-analysis of the deposited data

How the results depend on the processing

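Under every alternative run, 0 of the tested members passed the adjusted threshold, in loci and in rows. The number of loci that passed was 0, and became 6 with edgeR's exact test, 8 with DESeq2 and between 0 and 1 as each sample was omitted (1 without WT sample 1). For rows it was 0, and became 32 with the exact test, 93 with DESeq2 and between 0 and 2 as each was omitted (2 without WT sample 1, 1 without *fat-1* sample 1 or 2). At an unadjusted *p* at or under 0.05, 274 loci became 579 without the filter on low counts, 627 with the keratin covariate, 482 when *fat-1* sample 1 was omitted and 542 when WT sample 3 was, and 677 rows became 1136 without the filter. The cause was not tested. The sign of *Csn1s1* held in all 14 alternatives for the locus sum. Leaving out each sample gave log2 fold changes of the locus sums between −1.49 and −0.36 for *Csn1s1*, −0.89 and 0.00954 for *Csn3*, −0.14 and 0.21 for *Lalba*, −0.27 and 0.17 for *Mfge8*, −0.33 and 0.20 for *Xdh* and −1.21 and 1.43 for *Btn1a1*. For the rows the ranges were −0.89 to 0.0119 for *Csn3*, −0.15 to 0.22 for *Lalba*, −0.33 to 0.18 for *Mfge8*, 0.08 to 0.55 for *Xdh* and −1.21 to 1.43 for *Btn1a1*. *Btn1a1* turned without *fat-1* sample 1 alone and *Csn3* without WT sample 1 alone.

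Relative to the luminal keratins, the difference for *Csn3* stayed negative, between −0.51 and −0.27 as each sample was omitted, −0.33 with a pseudocount of 1 CPM (exact permutation *p* = 0.3, groups no longer apart) and −0.46 against the 8 pan-luminal markers (exact *p* = 0.1). Over the same omissions, the differences of members that changed sign ran from −2.25 to 0.23 for *Csn2*, −0.50 to 1.02 for *Csn1s2b*, −0.45 to 1.20 for *Wap*, −0.51 to 0.78 for *Lalba*, −0.30 to 0.34 for *Mfge8*, −0.68 to 0.78 for *Xdh* and −0.42 to 0.50 for *Btn1a1*.

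With the replicate number as a block, 0 members, 0 loci and 0 rows passed, and the log2 fold change of the *Btn1a1* locus was 0.16 beside 0.75 without it. The samples share only a number: deviations from the group means correlated at 0.683, −0.132 and 0.0993 for numbers 1 to 3. For pairs with different numbers, the correlation ran from −0.644 (*fat-1* sample 2 with WT sample 1) to 0.657 (*fat-1* sample 2 with WT sample 3). Depth limits *Csn2*, *Csn1s2a*, *Csn1s2b* and *Wap*, and the spread among 3 pools limits the rest.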
